A study of Mus musculus with 6 samples.

Results

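The 10 genes described here encode the core machinery of microRNA silencing: the Argonautes Ago1, Ago2, Ago3 and Ago4, the nucleases Dicer1 and Drosha, the Drosha partner Dgcr8, and the scaffold proteins Tnrc6a, Tnrc6b and Tnrc6c. They were matched by gene symbol, and all 10 were found among the 22599 genes of the count and FPKM tables. The set was assembled because Ago2 was lower in the NcoR1ΔHep libraries. The Ago2 difference between the groups is therefore given as a description, with no test read as evidence for it, and the same contrast in the other 9 genes is given without reading support for Ago2 from it.

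RNA was sequenced from mouse liver in 6 libraries. Of these, 3 (flox) came from mice with loxP-flanked NcoR1 alleles (NcoR1fl/fl), labelled wild type. The other 3 (NcoR1ΔHep) came from mice labelled as an NcoR1 knockdown, named for deletion in hepatocytes. Every title gives 0 h, every treatment label names liver ischemia-reperfusion, while age, sex, the Cre driver and any surgery at 0 h were not stated. Both groups ate chow freely. Separate animals are not named for the libraries, and p-values thus cover only the differences among libraries of a group. In NcoR1ΔHep, sex-linked transcripts (given below) put library 1 in a different animal from libraries 2 and 3. For the other libraries, the labels do not say which differences within a group lie between animals and which are technical. Within flox, the clock gene Dbp ran from 0.948 to 47.2 FPKM (given below).

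MicroRNAs are short guide RNAs that repress messenger RNAs with complementary sites. In the nucleus, Drosha and its RNA-binding partner Dgcr8 cut the hairpin out of the primary transcript. After export, Dicer trims the hairpin to a duplex, and one strand is loaded into an Argonaute protein. The Argonaute recruits a TNRC6 (GW182) scaffold, which brings in deadenylases and decapping enzymes. Ago2 is the Argonaute known for cutting its targets with an endonuclease activity. In liver, hepatocytes carry a large load of microRNAs.

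The libraries held 36975231 to 38470468 counts, and 13205 genes passed the filter on low counts, among them all 10 machinery genes. Ncor1 itself was at 6.78, 6.70 and 7.72 FPKM in flox and at 5.34, 6.63 and 4.93 FPKM in NcoR1ΔHep (edgeR log2 fold change -0.31, SE 0.21, adjusted p = 0.931), so the genotypes rest on the labels. The library NcoR1ΔHep 1 stood apart: it had 17138 counts of Xist against 6 to 18 in the others, 12 of Ddx3y against at least 2008, and the lowest correlation with every other library. Xist marks females and Ddx3y lies on the Y chromosome, so this library reads as female and the others as male. Where NcoR1ΔHep 1 differs from the others, sex and library cannot be told apart. The other libraries did not sort by group. Over all genes compared, flox 3 correlated most with NcoR1ΔHep 2 (r = 0.992), flox 2 with NcoR1ΔHep 3 (0.988) and flox 1 with flox 2 (0.983). Where leaving NcoR1ΔHep 1 out moved the fold change of a machinery gene by over 1.5 times, both values are given. Hepatocyte markers summed to 89500 to 107900 CPM (counts scaled by library total) in flox and to 97215 to 99681 in NcoR1ΔHep, so transcripts that define the labelled tissue were abundant.

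Levels are given first as FPKM, counts scaled by gene length and library total, which allows genes to be compared. Averaged over the 6 libraries, Dicer1 was highest with 2.63 ± 0.270 FPKM (SD, n = 6). Ago1 followed with 2.53 ± 0.547, Tnrc6a with 2.25 ± 1.31 and Drosha with 1.92 ± 0.340 FPKM. The order among these 4 was not the same in every library. Drosha lay above Tnrc6c in 6 of 6 libraries, the only step between neighbours in the order that held in all of them. Tnrc6c (1.06 ± 0.244 FPKM), Tnrc6b (1.05 ± 0.317) and Dgcr8 (0.907 ± 0.0894) formed a middle range. Ago2 (0.494 ± 0.413), Ago3 (0.381 ± 0.118) and Ago4 (0.330 ± 0.146) were lowest. These FPKM values depend on the gene lengths the authors used, which count and FPKM together put at 4707 bases for Drosha and 17528 bases for Tnrc6b. A long gene model lowers FPKM: Tnrc6b had 477 to 1055 counts and Drosha 267 to 436.

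**Figure D1:**
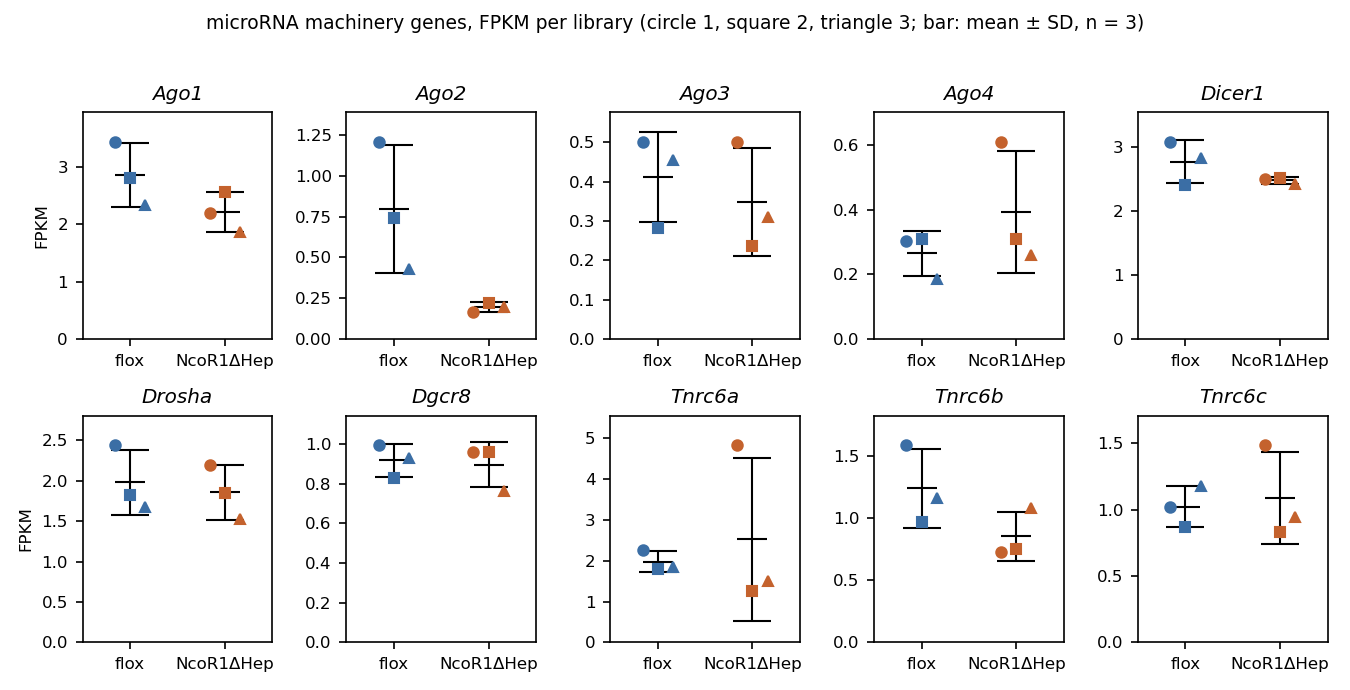
FPKM of each machinery gene (y axes from 0, each panel with its own scale) in the 3 flox libraries (blue) and the 3 NcoR1ΔHep libraries (orange), with circles, squares and triangles for libraries 1, 2 and 3 and bars for mean ± SD. Ago2 is the panel without overlap between groups, and Tnrc6a and Ago4 are highest in NcoR1ΔHep 1.

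Ago2 had the lowest counts of the set in NcoR1ΔHep. The flox libraries 1, 2 and 3 held 369, 230 and 128 Ago2 counts, or 1.21, 0.744 and 0.431 FPKM. In NcoR1ΔHep 1, 2 and 3 it was at 0.163, 0.224 and 0.194 FPKM, from 49, 67 and 58 counts. All NcoR1ΔHep libraries lay below all flox libraries, and the flox libraries themselves were spread over a wider range than the gap between the groups. The mean was 0.795 ± 0.392 FPKM in flox and 0.193 ± 0.0304 in NcoR1ΔHep (SD, n = 3 each), or 24.3% of the flox level. The fitted log2 fold change was -1.98, and -1.82 without NcoR1ΔHep 1. Without flox 1, the library with most Ago2, it was -1.65. The nearest pair of libraries across the groups were flox 3 and NcoR1ΔHep 2.

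Dgcr8 and Dicer1 were the steadiest of the 10 genes over the 6 libraries. Their SD was 9.86% and 10.3% of the mean, and 3.42% and 3.98% of tested genes varied less. The SD of Ago2 was 83.5% of its mean, which includes the group difference that chose the set. In RefSeq a lncRNA, Gm31725, overlaps the Ago2 locus. It was at 0.0261 FPKM in NcoR1ΔHep 1, at 0.00643 in flox 1 and listed at 0 in the other libraries.

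Ago1, which binds microRNAs but is not known for strong cutting, was the main Argonaute transcript. It was at 3.44, 2.80 and 2.33 FPKM in flox and at 2.19, 2.56 and 1.86 FPKM in NcoR1ΔHep. NcoR1ΔHep 2 lay above flox 3, so the groups overlapped. By edgeR, Ago1 differed by -0.35 on the log2 scale (SE 0.21, 95% interval from -0.82 up to 0.13) with an adjusted p = 0.931. Within flox the libraries ranked as for Ago2, an order also found in Drosha, whose log2 fold change was only -0.07.

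Ago3 and Ago4 also bind microRNA guides. Ago3 was at 0.4999, 0.282 and 0.454 FPKM in flox and at 0.502, 0.235 and 0.311 in NcoR1ΔHep, with the highest and the lowest value both in NcoR1ΔHep (log2 fold change -0.21, SE 0.32, edgeR adjusted p = 0.949). The Ago3 log2 fold change was -0.47 without NcoR1ΔHep 1, 0.0056 without NcoR1ΔHep 2, -0.39 without flox 2, and -0.12 and -0.11 without flox 1 and flox 3. Ago4 was at 0.304, 0.308 and 0.186 FPKM in flox and at 0.611, 0.310 and 0.259 in NcoR1ΔHep. Its log2 fold change of 0.56 (SE 0.38, edgeR adjusted p = 0.931) was 0.18 without NcoR1ΔHep 1, the library in which it was highest, and 0.36 without flox 3. Neither gene separated the groups.

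As shares of the summed Argonaute FPKM, Ago1 made up 63.0% to 76.9% in each library. Ago2 made up 22.2%, 18.0% and 12.7% in flox and 4.69%, 6.72% and 7.37% in NcoR1ΔHep. In flox 1 and flox 2 it was the second Argonaute transcript, and in flox 3 it stood close to Ago3 (13.4%). In all 3 NcoR1ΔHep libraries it was the least abundant of the 4, most narrowly in NcoR1ΔHep 2, where Ago3 had 7.08%. The summed Argonaute level was 4.33 ± 1.04 FPKM in flox and 3.14 ± 0.452 in NcoR1ΔHep, with overlap: flox 3 was at 3.40 and NcoR1ΔHep 1 at 3.47 FPKM. Without Ago2, the sum was 3.53 ± 0.649 and 2.95 ± 0.458 FPKM.

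**Figure D2:**
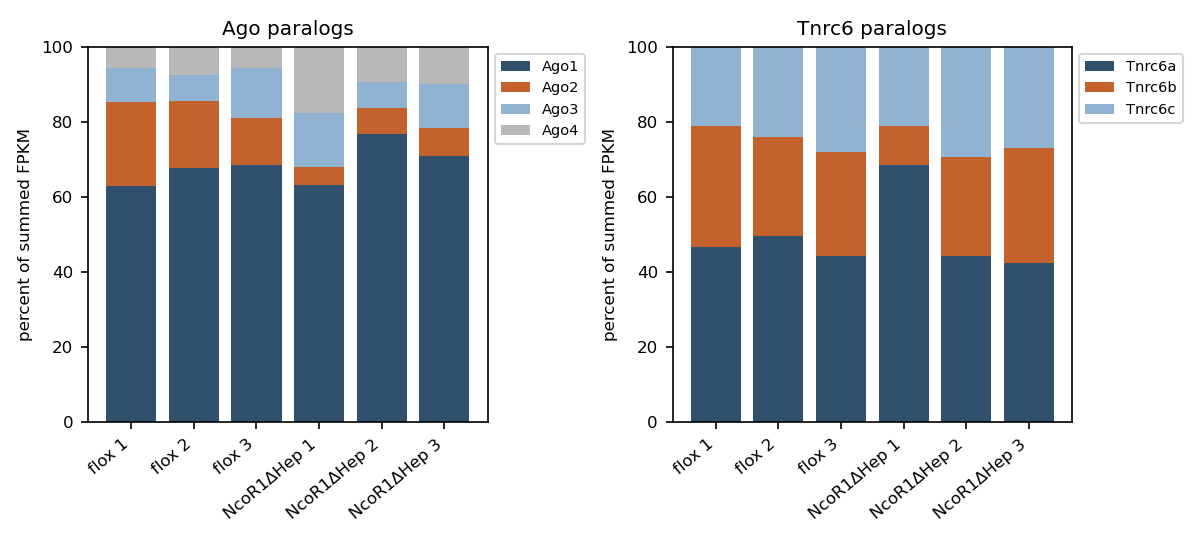
Stacked bars give each paralog's percent of the summed FPKM of its family in each library, for the Argonautes (left) and the Tnrc6 genes (right). The Ago2 segment covers 12.7% to 22.2% in flox and 4.69% to 7.37% in NcoR1ΔHep, and the Tnrc6a segment reaches 68.6% in NcoR1ΔHep 1.

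In RefSeq's GRCm38.p6, Ago3 (chr4:126326994-126431670), Ago1 (chr4:126435012-126468707) and Ago4 (chr4:126489487-126533586) lie next to each other with no other protein-coding gene between them. Ago2 lies on another chromosome (chr15:73101625-73184947). Over the 6 libraries the Pearson correlation of log2(CPM + 1) was -0.19 between Ago1 and Ago3, -0.32 between Ago1 and Ago4, and 0.05 between Ago3 and Ago4. Ago2 was more like Ago1 (r = 0.91) than like Ago3 (0.16) or Ago4 (-0.44). These are descriptions over 6 points that also differ in genotype.

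Dicer1 was at 3.09, 2.41 and 2.83 FPKM in flox and at 2.50, 2.53 and 2.42 in NcoR1ΔHep (log2 fold change -0.13, SE 0.18, edgeR adjusted p = 0.949). Its NcoR1ΔHep libraries lay within the flox range. Drosha was at 2.44, 1.83 and 1.67 FPKM in flox and at 2.19, 1.85 and 1.52 in NcoR1ΔHep (log2 fold change -0.07, SE 0.22, edgeR adjusted p = 0.978). The 95% intervals ran from -0.55 to 0.29 for Dicer1 and from -0.57 to 0.42 for Drosha, so differences inside these bounds were not excluded. Without NcoR1ΔHep 1 the log2 fold change was -0.066 for Dicer1 and -0.14 for Drosha. Drosha was at 0.028 without flox 1, -0.17 without flox 3 and -0.018 without NcoR1ΔHep 3.

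Dgcr8 had the smallest difference of the set. It was at 0.994, 0.831 and 0.929 FPKM in flox and at 0.962, 0.960 and 0.765 in NcoR1ΔHep, and the groups overlapped almost fully (log2 fold change -0.02, SE 0.20, 95% interval -0.48 to 0.45, edgeR adjusted p = 0.992). Dgcr8 overlaps the gene Trmt2a in RefSeq, which was at 1.71 to 3.19 FPKM, and whether the counting used strand is not given in the sources used here. Its transcript is a known target of Drosha, which cuts hairpins within it. The Dgcr8 log2 fold change stayed between -0.061 and 0.014 with any library left out, and was -0.00067 without NcoR1ΔHep 1. Over the 6 libraries Drosha and Dgcr8 had r = -0.08.

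The TNRC6 scaffolds differed among themselves. Tnrc6a was at 2.27, 1.81 and 1.85 FPKM in flox, and at 4.83, 1.25 and 1.503 FPKM in NcoR1ΔHep. NcoR1ΔHep 1 held 2024 counts against 523 to 964 in the other libraries, while NcoR1ΔHep 2 and NcoR1ΔHep 3 were the lowest 2 libraries. The log2 fold change was 0.34 (SE 0.44, edgeR adjusted p = 0.943) with NcoR1ΔHep 1 and -0.41 without it, so 1 library set its sign. It was 0.66 without NcoR1ΔHep 2 and 0.55 without NcoR1ΔHep 3. Tnrc6c was also highest in NcoR1ΔHep 1, at 1.49 FPKM against 0.830 to 1.18 in the others. Its log2 fold change of 0.10 (SE 0.26, edgeR adjusted p = 0.9746) became -0.10 without that library, and ran up to 0.26 without NcoR1ΔHep 2.

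Tnrc6b went the other way in NcoR1ΔHep 1. It was at 1.59, 0.967 and 1.16 FPKM in flox and at 0.726, 0.748 and 1.08 in NcoR1ΔHep, with NcoR1ΔHep 3 above flox 2. The log2 fold change was -0.48 (SE 0.27, 95% interval -1.10 to 0.15, edgeR adjusted p = 0.931), with -0.31 without NcoR1ΔHep 1 and -0.79 without NcoR1ΔHep 3. Tnrc6a held 42.5% to 49.6% of the summed Tnrc6 FPKM in 5 libraries and 68.6% in NcoR1ΔHep 1, where Tnrc6b held 10.3%.

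In the comparison of NcoR1ΔHep with flox, edgeR called 0 of the 10 genes, where it called 0 of 13205 genes in all (0%), and 443 genes (3.35%) had an unadjusted p under 0.05. DESeq2 called 1 machinery gene, Ago2, beside 5 of 20289 genes in all (0.0246%, and 0.0197% called lower). As the set was built on this call, nothing is read from it. FPKM did not overlap between groups in 1 of the 10 genes, Ago2, against 7.56% of all tested genes (4.95% lower, 2.61% higher). Of the other 9 genes, 6 had a log2 fold change below 0, where 46.5% of all tested genes did. The median of the 9 was -0.07, and of all tested genes 0.03. With Ago2, whose low value chose the set, the median was -0.10, and -0.21 without NcoR1ΔHep 1.

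**Figure D3:**
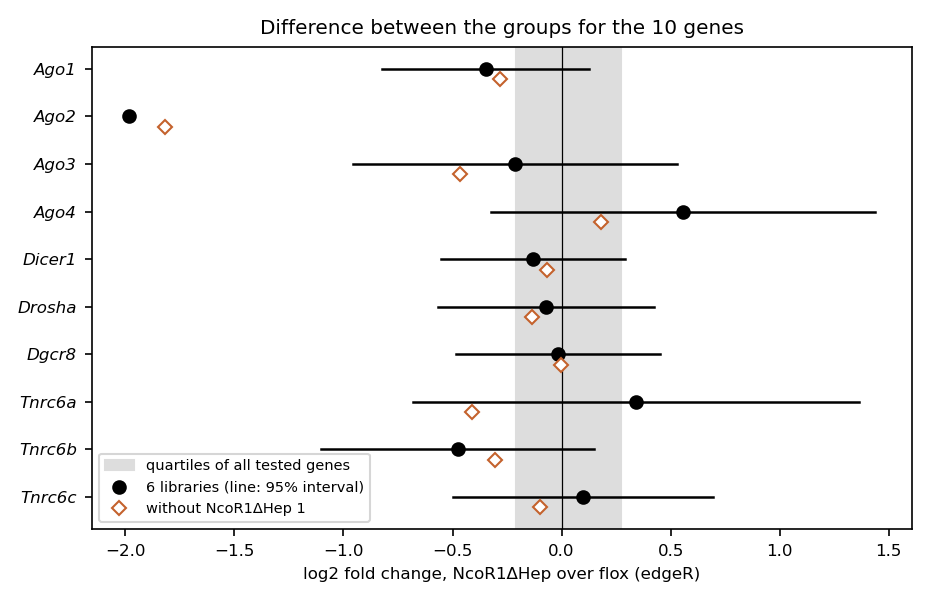
The x axis gives the edgeR log2 fold change of NcoR1ΔHep over flox for each gene, as a black point with its 95% interval (none for Ago2, which chose the set) and as an open diamond without NcoR1ΔHep 1. The 9 intervals cross 0, and the Tnrc6a and Tnrc6c diamonds lie on the other side of 0 from their points.

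The genes whose levels over the 6 libraries were most like those of Ago2 were taken by the Pearson correlation of log2(CPM + 1) among 11430 genes. Cdkn1a, the cell-cycle inhibitor p21, came first (r = 0.993). The next were Ormdl3, a regulator of sphingolipid synthesis (0.993), Rasal2, a Ras GTPase-activating protein (0.989), Abcc2, the canalicular export pump MRP2 (0.988), and Akap10, an anchor of protein kinase A (0.984). In all, 210 genes had r over 0.9, among them Ago1 at rank 175. The Ago2 values used here chose the set, and over 6 libraries r mixes the group difference with the spread within flox. Ormdl3, for example, had an edgeR log2 fold change of only -0.18. Shared control of these genes was not tested. Abcc2 was at 68.2, 47.2 and 41.7 FPKM in flox and at 26.7, 32.4 and 27.6 in NcoR1ΔHep. For Dicer1 the most alike were Exoc8 (0.982), Ncoa6 (0.981) and Ttbk2 (0.973), and 59 genes passed 0.9.

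Of 17 circadian clock genes tested, 14 were higher and 3 lower in NcoR1ΔHep (median log2 fold change 0.38, with 0.77 without flox 3 and 0.59 without NcoR1ΔHep 2). None passed edgeR, and DESeq2 called 1, Arntl (edgeR log2 fold change -3.23, SE 0.84). Nfil3, a repressor of clock output genes, had -1.05 (SE 0.47, edgeR adjusted p = 0.931). The clock activator gene Arntl (BMAL1) was at 1.29, 0.702 and 0.0983 FPKM in flox and at 0.0305 to 0.109 in NcoR1ΔHep (r with Ago2 = 0.956). Dbp, a clock output gene, ran opposite, at 0.948, 3.76 and 47.2 FPKM in flox and at 37.6 to 92.6 in NcoR1ΔHep (r = -0.935). Thus flox 1 and flox 2 differed from the other 4 libraries in clock genes, and these were the flox libraries with most Ago2. The part of clock time in the Ago2 difference was not tested, since the labels give no hour of collection. Srp54b, which has near-identical Srp54 copies that may share its reads, was also alike (r = 0.981). DESeq2 also called Srp54b and Cdkn1a lower, and Lgr5 higher (DESeq2 log2 fold change 1.38).

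**Figure D4:**
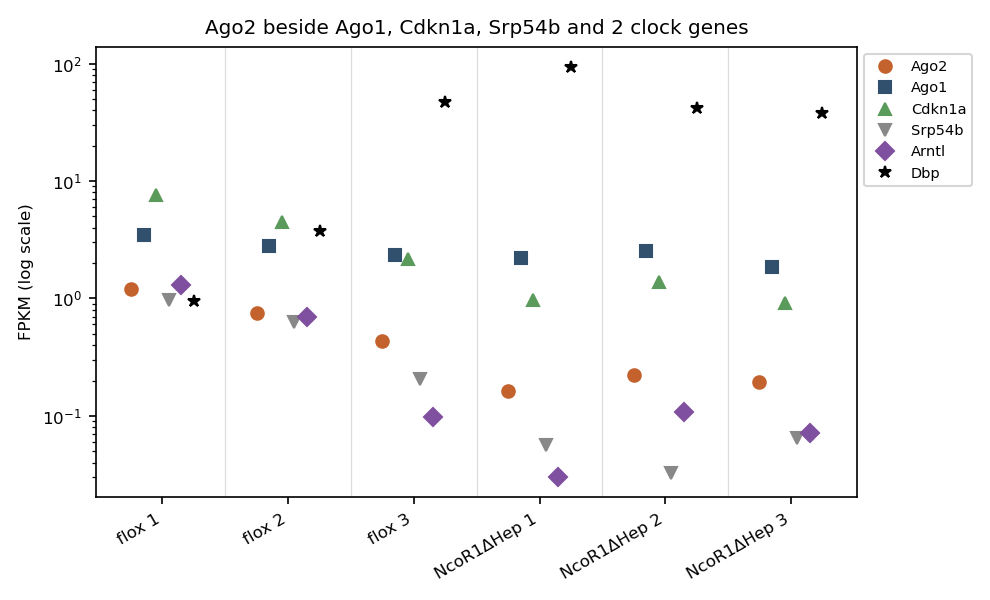
FPKM on a log axis of Ago2, Ago1, Cdkn1a, Srp54b, Arntl and Dbp in each library, 1 marker per gene. Ago2, Cdkn1a and Arntl are high in flox 1 and flox 2, where Dbp is at 0.948 and 3.76 FPKM against at least 37.6 in the other libraries.

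Liver tissue also holds other cells, and in bulk tissue fewer cells of a type and less RNA per cell cannot be told apart. All 10 markers of sinusoidal endothelial cells had a log2 fold change below 0. They summed to 451, 163 and 224 CPM in flox and to 251, 149 and 105 CPM in NcoR1ΔHep, with overlap between the groups. No marker was at 0 in all libraries. The part of these cells in the Ago2 difference was not tested. Kupffer cell markers summed to 315 to 494 CPM in flox and 196 to 496 in NcoR1ΔHep, and stellate markers to 321 to 465 and 374 to 509 CPM. Of 9 Kupffer markers 7 were lower, and of 9 stellate markers 8 were higher in NcoR1ΔHep. Of 4 erythroid markers, 3 had a log2 fold change below 0 and 1 above. They summed to 343, 261 and 247 CPM in flox and to 148, 216 and 244 CPM in NcoR1ΔHep. Scaled by library total alone, the groups did not overlap, but flox 3 and NcoR1ΔHep 3 were nearly level. The library scaling factors of the edgeR fit were 0.985 for flox 3 and 0.901 for NcoR1ΔHep 3. With those factors the erythroid sums overlap, so the separation depends on the scaling. The part of erythroid cells in the Ago2 difference was not tested either. Sums of cholangiocyte, neutrophil and lymphocyte markers overlapped between the groups. Of the tested markers, 3 of 4 for cholangiocytes and 6 of 7 for lymphocytes were higher in NcoR1ΔHep, and 3 of 3 for neutrophils were lower.

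The remaining genes of the pathway were taken from lists by role. Of 69 such genes tested, 31 were higher and 38 lower in NcoR1ΔHep, and none passed edgeR or DESeq2 (edgeR unadjusted p under 0.05 in 2). The groups did not overlap in 8 of them (11.6%), 5 lower and 3 higher, against 7.56% of all tested genes. In nuclear processing and export, 6 of 12 were higher (median log2 fold change 0.01, from -0.08 to 0.06 with a library left out). Ddx5, an RNA helicase of the Drosha complex, was at 75.5, 69.1 and 68.1 FPKM in flox and at 90.3, 77.5 and 109.6 in NcoR1ΔHep (0.42, SE 0.24). The splicing factor Srsf3, known to help Drosha recognise hairpins, had 0.26 (SE 0.22).

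Of 12 Dicer partners and Argonaute loading factors, 8 were lower (median -0.14, and -0.087 without NcoR1ΔHep 1). Hsp90aa1, a chaperone that holds Argonaute open for loading, was at 58.1, 53.4 and 32.6 FPKM in flox and at 20.5, 24.1 and 40.3 in NcoR1ΔHep. The groups overlapped (log2 fold change -0.70, SE 0.36). Its co-chaperone Stip1 had -0.36 (SE 0.20).

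Among the 17 deadenylation genes, 10 were higher and 7 lower (median 0.16). Cnot1, the scaffold of the CCR4-NOT deadenylase that TNRC6 proteins recruit, was at 10.97, 8.01 and 6.52 FPKM in flox and at 3.14, 5.68 and 4.45 in NcoR1ΔHep. All NcoR1ΔHep libraries lay below all flox libraries (log2 fold change -0.90, SE 0.29, edgeR adjusted p = 0.931). Tob1, an adaptor of the same deadenylase, was at 61.9, 64.3 and 55.8 FPKM in flox and at 88.6, 81.3 and 147 in NcoR1ΔHep (0.85, SE 0.32, edgeR adjusted p = 0.931). The 2 genes thus lay on opposite sides, and both were past an unadjusted p of 0.05 and not the adjusted one. The list's median was -0.04 without NcoR1ΔHep 3 and -0.0034 without flox 1, and 0.095 and 0.10 without NcoR1ΔHep 1 and NcoR1ΔHep 2.

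Of 16 decapping and repression genes, 9 were higher (median 0.07, with -0.16 without NcoR1ΔHep 3 and -0.03 without flox 1). Gigyf2, a translational repressor, was at 4.75, 4.13 and 3.79 FPKM in flox and at 3.01, 3.30 and 3.40 in NcoR1ΔHep (log2 fold change -0.35, SE 0.20), and the decapping enzyme Dcp2 had -0.52 (SE 0.31). Of 12 genes of microRNA turnover and Argonaute control, 10 were lower, with a median of -0.29. The growth factor receptor gene Egfr, whose product phosphorylates Ago2, was at 68.8, 94.95 and 58.6 FPKM in flox and at 18.4, 49.1 and 46.9 in NcoR1ΔHep (-0.92, SE 0.44), and Mapkapk2, another Ago2 kinase, had -0.40 (SE 0.24). None of these genes passed the edgeR threshold (adjusted p = 0.931 for each named).

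**Figure D5:**
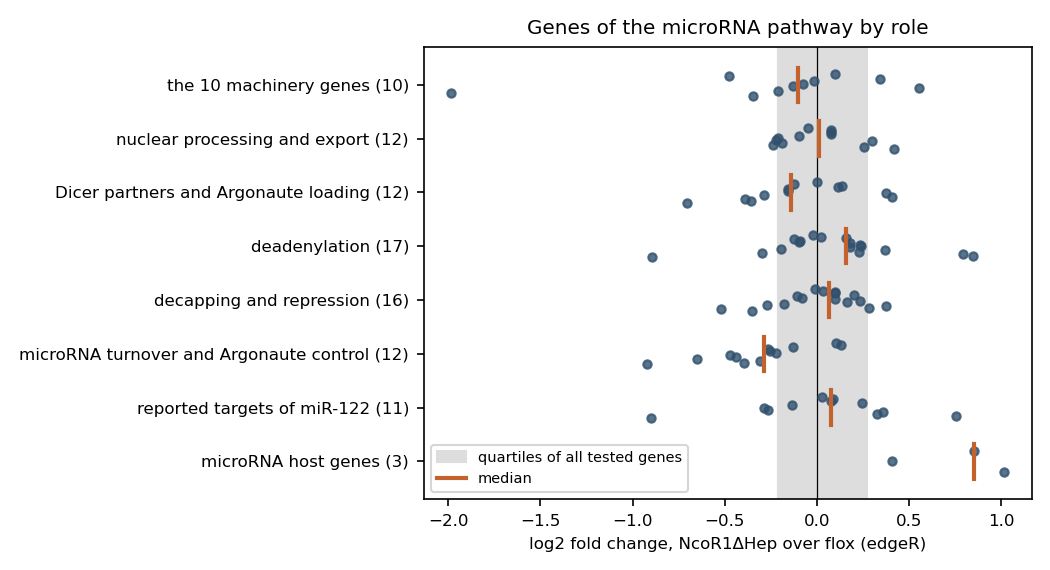
Each point is the edgeR log2 fold change of 1 tested gene (x axis), grouped by role with the number of genes in brackets; orange bars are medians and the grey band holds the middle of all tested genes by quartiles. The list medians run from -0.29 for turnover and Argonaute control to 0.85 for the 3 host genes, and Ago2 lies apart at -1.98.

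The germline Argonautes of the PIWI branch were almost absent: Piwil2 had at most 9 counts in a library and Piwil4 had 0 in each, which allows up to 3 counts. Both were below the filter. Of 11 transcripts reported as targets of miR-122, the main hepatocyte microRNA, 7 were higher and 4 lower. Their median of 0.07 ran from 0.016 without flox 2 to 0.17 without flox 1, and was 0.028, 0.045 and 0.032 without NcoR1ΔHep 1, flox 3 and NcoR1ΔHep 3. Slc7a1, a cationic amino acid transporter, had -0.90 (SE 0.53) and Agpat1, a phosphatidic acid synthesis enzyme, had 0.75 (SE 0.46), neither past edgeR's threshold (adjusted p = 0.931). Mature microRNAs were not measured here.

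Of 6 microRNA host genes in the tables, 3 were tested, and all 3 had positive log2 fold changes that did not pass. Mir22hg, the host of miR-22, was the most abundant. It was at 10.2, 9.79 and 8.32 FPKM in flox and at 18.8, 8.12 and 10.6 in NcoR1ΔHep (0.41, SE 0.29, edgeR adjusted p = 0.931). The high value was again in NcoR1ΔHep 1. Mir99ahg (1.02, SE 0.52) and Mir17hg (0.85, SE 0.64) had at most 29 and 70 counts in a library. Without NcoR1ΔHep 1 the median of the 3 was 0.28 instead of 0.85. Both arms of miR-22 from Mir22hg, and both arms of the Mir17hg hairpin miR-92a-1, are shown from RefSeq (GRCm38.p6), with the seed, bases 2 to 8, in capitals, because the seed is the part an Argonaute presents to targets.
miR-22-3p: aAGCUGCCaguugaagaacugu
miR-22-5p: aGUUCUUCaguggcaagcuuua
miR-92a-3p: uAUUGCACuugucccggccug
miR-92a-1-5p: aGGUUGGGauuugucgcaaugcu
The 4 seeds differ from each other.

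Promoter windows of 300 bases around the start site from RefSeq (GRCm38.p6) were matched for 9 of the 10 genes, all but Ago2, in 11 windows. They were searched on both strands for the E-box CACGTG, to which the clock activators CLOCK and BMAL1 bind, for the D-box TTATGTAA of Dbp, and for AGGTCA, the half-site of nuclear receptors such as the REV-ERB and ROR proteins, of which REV-ERB is known to recruit NcoR1. Of 32851 windows, 7.15% hold the E-box, 0.938% the D-box and 16.3% the half-site. Among the 11 windows, 1 held the E-box, 0 the D-box and 2 the half-site. The windows with a match are shown 5′ to 3′ with the matches in capitals, beside the Arntl window that holds the half-site. Arntl is a clock gene correlated with Ago2 over the libraries (r = 0.956), though its flox 3 level lay within the NcoR1ΔHep range.
Tnrc6a, chr7:123123635-123123934, plus strand: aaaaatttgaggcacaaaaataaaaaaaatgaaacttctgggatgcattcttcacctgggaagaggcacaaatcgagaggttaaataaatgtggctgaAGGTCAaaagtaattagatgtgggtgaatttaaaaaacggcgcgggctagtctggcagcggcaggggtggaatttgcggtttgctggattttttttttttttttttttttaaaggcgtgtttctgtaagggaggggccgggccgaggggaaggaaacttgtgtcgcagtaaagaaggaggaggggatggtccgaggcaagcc
Tnrc6b, second start, chr15:80798360-80798659, plus strand: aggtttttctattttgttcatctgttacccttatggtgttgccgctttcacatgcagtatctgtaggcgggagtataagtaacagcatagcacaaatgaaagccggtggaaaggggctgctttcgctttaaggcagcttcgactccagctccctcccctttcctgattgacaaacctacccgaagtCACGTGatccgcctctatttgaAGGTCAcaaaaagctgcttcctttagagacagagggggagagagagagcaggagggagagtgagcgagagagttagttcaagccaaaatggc
Arntl, second start, chr7:113207261-113207560, plus strand: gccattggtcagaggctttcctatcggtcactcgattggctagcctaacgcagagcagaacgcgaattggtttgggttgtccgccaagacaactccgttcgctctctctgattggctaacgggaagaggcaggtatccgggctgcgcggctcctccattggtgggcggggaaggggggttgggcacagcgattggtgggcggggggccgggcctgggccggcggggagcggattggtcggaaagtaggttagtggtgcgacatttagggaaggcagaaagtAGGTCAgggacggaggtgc
In Tnrc6a the half-site starts 152 bases before the start site. In Tnrc6b the E-box starts 64 bases and the half-site 42 bases before it, at the second of 2 starts, and the counts do not tell the starts apart. The 2 matches do not overlap. A match describes letters only.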

How the data were processed

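In all, 6 mouse liver libraries (SMARTer mRNA-Seq kit, per the labels' protocols) were compared. Read counts, deposited unnormalized, are whole numbers for each gene. In the deposited FPKM table each value was a count divided by a gene length and the library total: the implied length was the same in all libraries within 0.1 base for 100% of 11237 genes. The submitters' processing notes name GRCm38, mm10 and hg38 without a role, and no aligner, counter or strand setting is given in the sources used here. RefSeq positions and sequences (GRCm38.p6) matched 21966 of 22599 symbols.

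Counts were filtered with filterByExpr (minimum count 10, total 15), scaled by TMM (factors 0.901 to 1.11) and tested with edgeR 4.0.16's quasi-likelihood test (R 4.3.3), two-sided, Benjamini-Hochberg adjusted over 13205 genes, threshold 0.05. All adjusted p-values come from this fit unless DESeq2 1.42.0 is named. Alternatives, including limma 3.58.1, are in the closing section. The tests were tried on simulated counts. Named genes were the 10 members, Ncor1, the PIWI genes, the 2 smallest p-values per list, genes DESeq2 called, Xist, Ddx3y, and the genes most correlated with Ago2 (5) and Dicer1 (3). Dbp was chosen after its values were seen, and Gm31725 and Trmt2a for their overlap. The members and lists were chosen with earlier results of these data known. The main fit did not pair libraries by replicate number.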

Additional observations from a re-analysis of the deposited data

How the results depend on the processing

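No alternative made edgeR or limma call a gene, and DESeq2 called 5 genes in all and 1 of the 10 (Ago2). In DESeq2 fits that left out a library in turn, an alternative chosen after seeing the data, 0 to 72 genes and 0 to 1 of the 10 passed (72 without flox 3, 24 without NcoR1ΔHep 2, 18 without NcoR1ΔHep 3, and 0 of the 10 without flox 1, flox 2 or NcoR1ΔHep 1). With a library left out, the median of the 10 ran from -0.21 to -0.063, and -0.21 was without NcoR1ΔHep 1. With the replicate block edgeR called 0 genes and the Ago2 log2 fold change was -1.91. Same-numbered libraries had correlations of deviations of 0.02, -0.40 and -0.54. Differently numbered ones ran from -0.27 (flox 2 with NcoR1ΔHep 1) to 0.65 (flox 2 with NcoR1ΔHep 3). Deviations within groups of 3 are not independent, so these values cannot settle whether the numbers mark pairs. The Ago2 value ran from -2.28 to -1.64 with a library left out. It was -0.57 on log2(FPKM + 1), a pseudocount above the Ago2 level in 5 of 6 libraries. On filtered FPKM, Ago2, Ago3 and Ago4 were below the filter (0.5 FPKM in 3 libraries) and gave no value.

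Values with the other sign were small except for Tnrc6a. Dgcr8 was 0.017 with upper-quartile factors and ran from -0.061 to 0.014 with a library left out. Drosha ran from -0.17 to 0.028 by edgeR and from -0.18 to 0.037 by DESeq2, Ago3 from -0.47 to 0.0056, Tnrc6c from -0.10 to 0.26 and Tnrc6a from -0.41 to 0.66 in the same way. Signs also turned in Drosha without flox 1 by both tools, in Ago3 without NcoR1ΔHep 2 (0.0055 by DESeq2), and in Dgcr8 without flox 3 (0.0073), NcoR1ΔHep 1 (0.0037 by DESeq2) or NcoR1ΔHep 3 (0.014, and 0.0047 by DESeq2). DESeq2 without NcoR1ΔHep 1 gave -0.41 for Tnrc6a and -0.095 for Tnrc6c. The negative Tnrc6a and Tnrc6c values were without NcoR1ΔHep 1. The host gene median was 0.42 with the CPM filter and 0.20 to 0.31 on FPKM, and Tnrc6b ran from -0.795 to -0.30 with a library left out. Ago1, Ago2, Ago4, Dicer1 and Tnrc6b kept their sign under every alternative that gave a value. Depth limits the low genes most: Ago2 had 49 to 67 counts in NcoR1ΔHep and Ago4 66 to 220 in all libraries.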
